A study of Mus musculus with 9 samples.

Results

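The genes described here encode the enzymes that remove superoxide and peroxides and that make, recycle and use glutathione in mouse 3T3 cells, an immortalised fibroblast line. They were taken from the array by name: the glutathione transferases (*Gsta*, *Gstk*, *Gstm*, *Gsto*, *Gstp*, *Gstt* and the microsomal *Mgst* genes), the glutathione peroxidases (*Gpx*), the peroxiredoxins (*Prdx*), the superoxide dismutases *Sod1*, *Sod2* and *Sod3*, and *Cat*, *Gclc*, *Gclm*, *Gsr*, *Txn1*, *Txnrd1*, *Hmox1* and *Nqo1*. In all, 45 such genes, of 19938 with a single symbol on the array, had a probe set (the group of probes for 1 transcript) that the annotation pairs with that gene alone. Where a gene had several, the probe set with the highest mean over the arrays stood for it. The 45 include *Prdx6-ps2*, named as a pseudogene rather than an enzyme gene, and do not include *Prdx5* or *Prdx6*. RNA was hybridised to 9 arrays, 3 per group. The groups were Trap-80 knock-down cells given TNF-α at 5 ng/ml for 1 h, wild-type cells given the same stimulation, and wild-type cells left unstimulated. Both kinds of cell carried a stable short hairpin RNA, directed against the Mediator subunit Trap-80 in the knock-down cells and irrelevant in the cells called wild type. The knock-down cells were clonal lines, of which the study took a single clone per hairpin forward and used 1 hairpin for its main experiments, so an effect of the knock-down cannot be told apart from a difference between clones. No array of unstimulated knock-down cells was analysed here, and a difference seen between stimulated cells may already have existed at rest.

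Superoxide dismutases turn superoxide into hydrogen peroxide, which catalase, the glutathione peroxidases and the peroxiredoxins then reduce. Glutathione peroxidases and glutathione transferases draw on glutathione, which glutamate-cysteine ligase (*Gclc* and *Gclm*) begins to build and glutathione reductase (*Gsr*) returns to its reduced form, whereas peroxiredoxins draw on thioredoxin. Many of these genes are known targets of Nrf2, a transcription factor that binds the antioxidant response element together with a small Maf protein, and *Sod2*, the mitochondrial dismutase, is a known target of NF-κB in cells treated with TNF-α.

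The values are log2 signals as the authors deposited them, so a difference of 1 is a doubling. They were compared in 1 limma model of the 3 groups, and a gene passed the test where its p-value, adjusted by Benjamini-Hochberg over 23410 probe sets, was under 0.05. Where the arrays of groups are said below not to overlap, this is a description and not a test. The share of all probe sets without overlap is not given here. *Med17*, the gene of Trap-80, had a log2 signal of 6.25 ± 0.09 in stimulated knock-down cells and 7.89 ± 0.11 in stimulated wild-type cells (SD, n = 3 each), a difference of -1.64 (standard error 0.09). A two-sided exact permutation test gave p = 0.1, and groups of 3 can give no smaller value. All 8 fibroblast markers examined had means above the median probe set mean of 4.51, whereas 10 of 12 macrophage, endothelial and epithelial markers lay below it, and none of these 12 passed the test in any comparison. The fibroblast markers *Thy1* and *S100a4* were themselves higher in the knock-down, by 2.09 and 0.55, and the 8 log2 signals summed to between 84.8 and 86.7 in stimulated knock-down arrays and between 82.4 and 84.8 in stimulated wild-type arrays. Their part in the results on antioxidant genes was not tested. Array signal from whole cultures cannot tell less RNA per cell from fewer cells that carry it.

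In stimulated Trap-80 knock-down cells 3 of the 45 antioxidant genes were lower than in stimulated wild-type cells and 2 were higher. *Mgst1*, a microsomal glutathione transferase, fell by 2.75 on the log2 scale (6.72-fold lower), *Sod2* by 0.84 (1.79-fold) and *Gstt3*, a theta-class glutathione transferase, by 0.82 (1.77-fold). *Prdx1*, a cytosolic peroxiredoxin, rose by 0.39 (1.31-fold) and *Gpx1*, the selenium-dependent glutathione peroxidase of the cytosol and mitochondria, by 0.36 (1.29-fold). In this comparison 6.67% of the antioxidant genes were lower and 4.44% higher, against 2.6% lower and 3.36% higher among all tested probe sets. Each gene is 2.22% of the 45. The median difference of the 45 genes was -0.01, against -0.02 for all tested probe sets. After 1 h of TNF-α in wild-type cells none of the 45 passed the limma test, which called only 0.111% of all tested probe sets higher and 0.00427% lower.

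The regions before the start sites of 4 of the genes that passed are shown, since they hold matches to the motifs through which NF-κB and Nrf2 are known to bind. Each is the 250 bases that end just before the start, 5′ to 3′ along the gene, from RefSeq (build GRCm38.p6). Capitals mark matches to the antioxidant response element (TGACNNNGC), the AP-1 motif (TGANTCA) and the NF-κB motif on either strand, and to the TATA box (TATAAA) on the gene's strand.
Sod2, chr17:13007589-13007838, plus strand: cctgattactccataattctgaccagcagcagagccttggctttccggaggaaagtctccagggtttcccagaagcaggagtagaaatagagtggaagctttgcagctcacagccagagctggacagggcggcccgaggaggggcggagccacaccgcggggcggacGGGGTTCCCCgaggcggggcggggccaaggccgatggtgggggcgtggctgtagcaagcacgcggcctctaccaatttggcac
Mgst1, chr6:138140277-138140526, plus strand: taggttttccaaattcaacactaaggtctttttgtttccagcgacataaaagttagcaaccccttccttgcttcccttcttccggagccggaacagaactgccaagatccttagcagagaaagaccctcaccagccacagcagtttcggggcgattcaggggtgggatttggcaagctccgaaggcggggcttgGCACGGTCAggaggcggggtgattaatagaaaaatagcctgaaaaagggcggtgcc
Prdx1, chr4:116685349-116685598, plus strand: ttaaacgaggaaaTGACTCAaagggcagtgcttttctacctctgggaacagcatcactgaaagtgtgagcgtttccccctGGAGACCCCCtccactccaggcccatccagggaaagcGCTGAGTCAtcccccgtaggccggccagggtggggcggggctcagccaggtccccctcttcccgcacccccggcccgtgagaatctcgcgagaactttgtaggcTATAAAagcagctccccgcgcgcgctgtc
Gpx1, chr9:108338830-108339079, plus strand: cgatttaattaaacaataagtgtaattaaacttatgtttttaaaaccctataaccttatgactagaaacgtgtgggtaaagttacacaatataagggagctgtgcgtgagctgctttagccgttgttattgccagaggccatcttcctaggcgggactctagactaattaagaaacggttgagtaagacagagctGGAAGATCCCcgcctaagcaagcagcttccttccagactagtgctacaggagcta
The capitals in *Sod2* are an NF-κB match that starts 83 bases before the start site, and those in *Mgst1* an antioxidant response element on the opposite strand. *Prdx1* held 2 AP-1 matches, the nearer of which overlaps its antioxidant response element, as the letters of these motifs allow, besides an NF-κB match and a TATA box. *Gpx1* held an NF-κB match on the opposite strand. The second annotated start of *Mgst1* and both starts of *Gstt3* held none of the 4 motifs.

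Start-site windows were found for 38 of the 45 genes. The antioxidant response element was present in 8 of them (21.1%), namely *Gclm*, *Gsta3*, *Gstm5*, *Gstm7*, *Mgst1*, *Prdx1*, *Sod1* and *Txnrd1*, and in 11.5% of 27025 genes with a window. The NF-κB motif was present in 5 (13.2%, against 8.23% of all genes), the AP-1 motif in 4 (10.5%, against 7.82%) and the TATA box in 7 (18.4%, against 8.94%). The genes with an NF-κB motif were *Cat*, *Gpx1*, *Gstt4*, *Prdx1* and *Sod2*. Their TNF-α differences were -0.02, -0.13, -0.05, 0.003 and 0.72, and none passed the test. No filter on gene type was applied to the 27025 genes, so they may differ in kind from the enzymes. The 8 genes with an antioxidant response element did not share a direction in the knock-down: *Prdx1* rose and *Mgst1* fell, and the other 6 did not pass the test, with differences between -0.44 (*Gstm5*) and 0.17 (*Gclm*). A match is a description of these letters, and no match says only that they are not in this window.

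**Figure D1:**
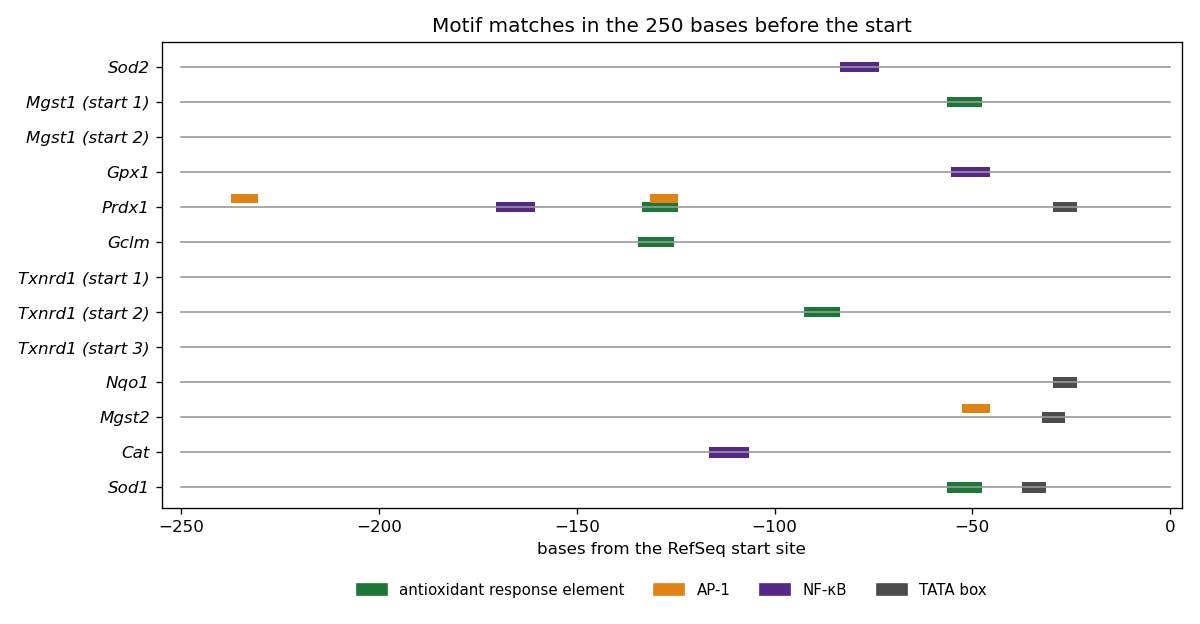
Positions of motif matches (coloured boxes) in the 250 bases before the RefSeq start site, in bases from the start (horizontal axis), for 10 antioxidant genes, with a line for each annotated start. The NF-κB box of *Sod2* begins 83 bases before the start, and the AP-1 and antioxidant response element boxes of *Prdx1* overlap.

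*Sod2* was the antioxidant gene with the largest TNF-α response. Its log2 signal was 9.69, 9.63 and 9.95 in stimulated wild-type cells, against 9.20, 9.19 and 8.71 in unstimulated ones, so that every stimulated array lay above every unstimulated array. The difference was 0.72 (standard error 0.14, 95% interval 0.40 to 1.04), but it did not pass after adjustment over all probe sets (adjusted p = 0.19; 0.23 with the replicate number as a block). The reproducibility filter of the study's methods, as read here, took *Sod2* in this comparison, as it did 7.46% of all tested probe sets. In stimulated knock-down cells *Sod2* was at 8.88, 8.85 and 9.03, below all 3 stimulated wild-type arrays. The difference of the knock-down from stimulated wild type was -0.84 (standard error 0.14, adjusted p = 0.0089). Set against unstimulated wild-type cells, the stimulated knock-down differed by -0.12 (95% interval -0.44 to 0.20, adjusted p = 0.71). The stimulated wild-type arrays enter both the TNF-α response and the knock-down difference, so these values are not independent of each other.

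The other members of this group did not pass in either comparison. *Sod1*, the cytosolic copper-zinc dismutase, was at 9.92, 10.06 and 9.91 in stimulated and 10.10, 10.12 and 10.21 in unstimulated wild-type cells, a difference of -0.18 (adjusted p = 0.68) with no overlap between the groups. *Sod3*, the extracellular dismutase, differed by 0.04 after TNF-α and by -0.21 in the knock-down (adjusted p = 0.97 and 0.58). *Cat*, catalase, differed by -0.40 in the knock-down (standard error 0.19, adjusted p = 0.31), and it passed with the replicate number as a block (adjusted p = 0.036).

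**Figure D2:**
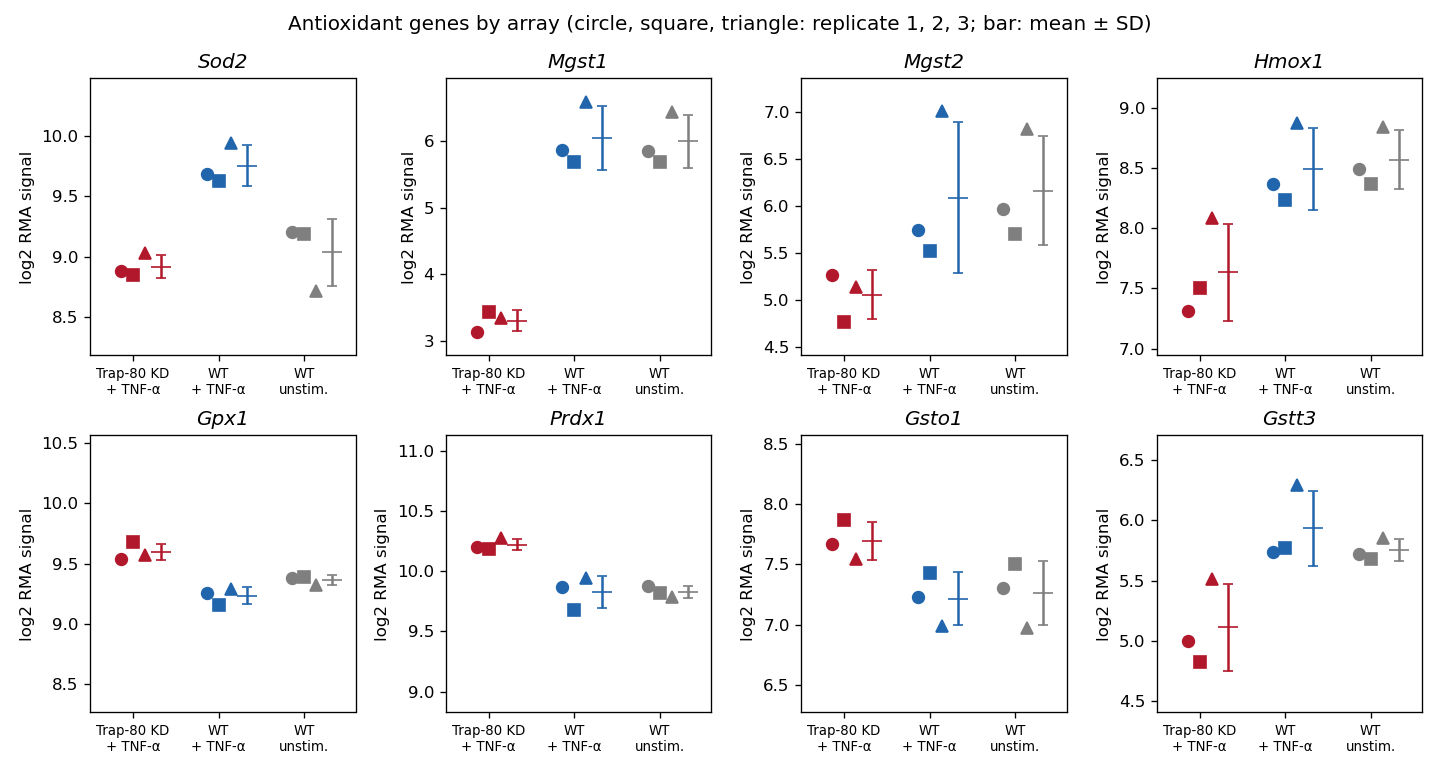
Log2 signal of each array (vertical axis) for 8 antioxidant genes in stimulated Trap-80 knock-down, stimulated wild-type and unstimulated wild-type cells, with the mean ± SD beside the 3 arrays of a group. The *Mgst1* arrays of the knock-down sit between 3.13 and 3.43, below all 6 wild-type arrays, and the *Sod2* arrays of stimulated wild-type cells sit above those of both other groups.

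Of the 3 microsomal glutathione transferases *Mgst1* fell, and the other 2 did not pass without the block. *Mgst1*, an enzyme of the endoplasmic reticulum and outer mitochondrial membrane that conjugates glutathione and reduces lipid hydroperoxides, was at 3.13, 3.43 and 3.34 in stimulated knock-down cells, against 5.87, 5.68 and 6.59 in stimulated wild-type cells. Unstimulated wild-type cells were at 5.86, 5.68 and 6.44, and the TNF-α difference was 0.05 (95% interval -0.51 to 0.62). The value of -2.75 in the knock-down (standard error 0.25, adjusted p = 0.00048) was the largest difference in either direction among the 45 genes, and it was -2.69 (adjusted p = 0.00042) against unstimulated wild type. Since the knock-down mean of 3.30 was under 4.51, the median over probe sets, the fall is more certain in direction than in size. *Mgst2*, which also takes part in leukotriene synthesis, was at 5.27, 4.77 and 5.15 in the knock-down and 5.75, 5.52 and 7.01 in stimulated wild-type cells. These arrays did not overlap either, but the third wild-type array stood well above the other 2, and the difference of -1.03 (standard error 0.39) had an adjusted p of 0.20 (0.030 with the replicate number as a block). *Mgst3* had a difference of 0.57 (standard error 0.24, adjusted p = 0.25).

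Among the cytosolic and mitochondrial glutathione transferases, which attach glutathione to electrophiles, *Gstt3* fell, and none of the other 17 passed without the block. *Gstt3* was at 5.00, 4.82 and 5.52 in stimulated knock-down cells, against 5.74, 5.77 and 6.29 in stimulated wild-type cells (difference -0.82, standard error 0.19, adjusted p = 0.038). This call was lost without any 1 array other than knock-down array 3 (adjusted p up to 0.13). Against unstimulated wild-type cells, at 5.72, 5.68 and 5.85, the knock-down differed by -0.64 and *Gstt3* did not pass (adjusted p = 0.083). *Gstt3* lies in a run of 4 adjacent theta-class genes on chromosome 10, in the order *Gstt3*, *Gstt1*, *Gstt4* and *Gstt2*. Between the stimulated groups its neighbours *Gstt1*, *Gstt4* and *Gstt2* had differences of -0.50, -0.07 and -0.11 (adjusted p = 0.45, 0.73 and 0.58). The 7 adjacent mu-class genes on chromosome 3 ranged between -0.44 (*Gstm5*, adjusted p = 0.23) and 0.18 (*Gstm1*, adjusted p = 0.81). For *Gstm3* the probe set used gave 0.14 and a second, dimmer one 0.18 (adjusted p = 0.84 and 0.68). Whether each lies in this run was not examined. *Gsto1*, an omega-class enzyme that reduces dehydroascorbate, was at 7.67, 7.87 and 7.55 in the knock-down and 7.23, 7.43 and 6.99 in stimulated wild-type cells. The groups did not overlap, and the difference of 0.48 (standard error 0.16) had an adjusted p of 0.13 (0.0061 with the replicate number as a block). *Gstk1*, the mitochondrial kappa-class enzyme, differed by 0.35 (adjusted p = 0.58, or 0.035 with the block), and all its group means lay below 4.51. *Gstp1*, the pi-class enzyme, differed by 0.18 (adjusted p = 0.23), while 2 probe sets that the annotation shares between *Gstp1* and its near-identical copy *Gstp2* differed by 0.34 and 0.35 (adjusted p = 0.022 and 0.036). The array therefore does not settle which copy these belong to. The mu-class genes are also close relatives, and probes of one may take up another's transcript.

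The peroxidases *Gpx1* and *Prdx1* rose by less than 1.5-fold, and none of their relatives passed. *Gpx1* was at 9.54, 9.68 and 9.57 in stimulated knock-down cells and 9.25, 9.15 and 9.29 in stimulated wild-type cells, with no overlap (difference 0.36, standard error 0.07, adjusted p = 0.017). It missed the threshold without stimulated wild-type array 1 or 2 or knock-down array 2 (adjusted p up to 0.062). Against unstimulated wild-type cells, at 9.38, 9.39 and 9.32, the knock-down differed by 0.23 and *Gpx1* did not pass (adjusted p = 0.081). Its stimulated wild-type arrays all lay below the unstimulated ones (difference -0.13, adjusted p = 0.72). In the knock-down difference the other 7 glutathione peroxidases lay between -0.36 and 0.10 and none passed. The lowest of these was *Gpx7*, a peroxidase of the endoplasmic reticulum (adjusted p = 0.15), and the range takes in *Gpx4*, which reduces lipid hydroperoxides in membranes, at 0.07 (95% interval -0.16 to 0.30). *Prdx1* was at 10.20, 10.19 and 10.28 in the knock-down and 9.87, 9.68 and 9.94 in stimulated wild-type cells (difference 0.39, standard error 0.08, adjusted p = 0.023). It was also higher than in unstimulated wild-type cells, by 0.39 (adjusted p = 0.017). A second, dimmer probe set of *Prdx1* gave 0.41 (standard error 0.10, adjusted p = 0.053). Where in the genome either probe set maps was not examined, so the first may not measure the locus whose start is shown above. The first missed the threshold without any 1 of stimulated wild-type array 1 or 2 or knock-down array 1, 2 or 3 (adjusted p up to 0.086), and against unstimulated wild type without unstimulated array 2 or knock-down array 3 (up to 0.065). The mitochondrial *Prdx3* and the secretory-pathway *Prdx4* differed by 0.08 and 0.17, and the cytosolic *Prdx2* by -0.03 (adjusted p = 0.69, 0.43 and 0.89). A second probe set of *Prdx2* was much dimmer, with a mean of 6.90 against 11.28, and gave -0.06 (adjusted p = 0.85). *Prdx6-ps2*, named as a pseudogene of *Prdx6*, differed by 0.05 (adjusted p = 0.91).

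Thioredoxin and its reductase did not pass. *Txnrd1*, which reduces thioredoxin with NADPH, was at 9.46, 9.33 and 9.17 in stimulated knock-down cells and 9.39, 9.29 and 9.16 in stimulated wild-type cells. Its difference was 0.04, with a 95% interval of -0.20 to 0.28, and that of *Txn1*, thioredoxin, was 0.10 (adjusted p = 0.60).

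The genes of glutathione synthesis and recycling did not pass either without the block. *Gclc*, the catalytic subunit of glutamate-cysteine ligase, was at 9.04, 9.07 and 8.89 in stimulated knock-down cells and 8.72, 8.76 and 8.43 in stimulated wild-type cells. All 3 knock-down arrays lay above the wild-type ones, and the difference was 0.37 (standard error 0.14, adjusted p = 0.21; 0.032 with the replicate number as a block). *Gclm*, the modifier subunit, was at 8.61, 8.71 and 8.74 in stimulated knock-down cells and 8.58, 8.51 and 8.46 in stimulated wild-type cells (difference 0.17, adjusted p = 0.33). *Gsr* differed by -0.06 (adjusted p = 0.90).

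*Hmox1*, heme oxygenase, which breaks down heme and is a classic stress-induced Nrf2 target, was at 7.31, 7.50 and 8.08 in stimulated knock-down cells. It was at 8.37, 8.23 and 8.87 in stimulated wild-type cells and at 8.49, 8.37 and 8.84 in unstimulated ones, so the knock-down arrays lay below all 6 wild-type arrays. The value of the knock-down minus stimulated wild type was -0.86 (standard error 0.23) and missed the threshold (adjusted p = 0.064; 0.0015 with the replicate number as a block). Against unstimulated wild-type cells, a comparison in which cell line and stimulation differ together, *Hmox1* fell by 0.93 (adjusted p = 0.037). This was lost without unstimulated array 1, 2 or 3, stimulated wild-type array 1 or knock-down array 1 or 2 (adjusted p up to 0.13), with all deposited probe sets tested (0.077) and with only the 6 arrays compared (0.062), and the first value passed without knock-down array 3 (adjusted p = 0.031). *Nqo1*, a quinone reductase, was at 6.67, 7.25 and 7.08 in the knock-down and 7.16, 7.26 and 7.03 in stimulated wild-type cells, which overlap (difference -0.15, adjusted p = 0.70).

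In that comparison of stimulated knock-down with unstimulated wild-type cells, *Mgst1* and *Hmox1* fell and *Prdx1* rose. These are 4.44% and 2.22% of the 45 genes, against 4.62% lower and 3.64% higher among all tested probe sets. It shares arrays with both other comparisons.

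**Figure D3:**
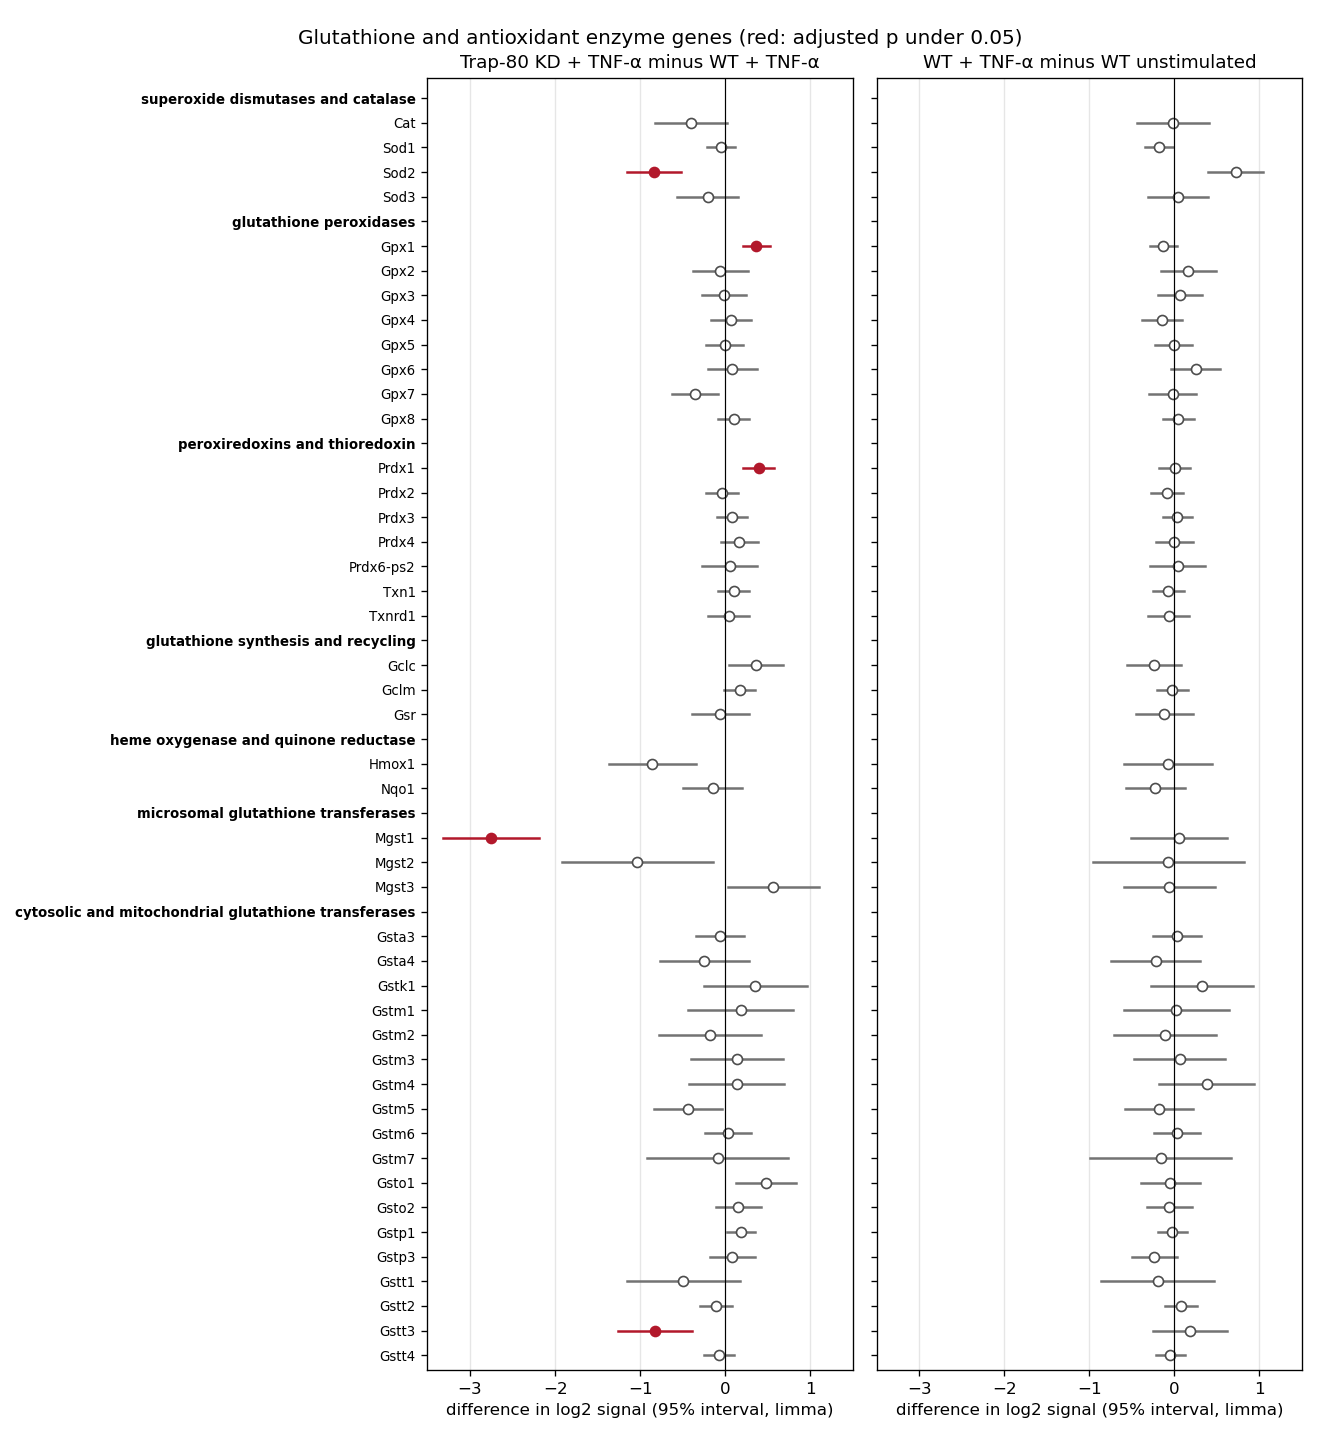
Difference in log2 signal (horizontal axis) with its 95% interval for each of the 45 genes, grouped by enzyme family, for knock-down minus wild-type cells, both stimulated (left), and stimulated minus unstimulated wild-type cells (right). Filled red points passed the test: 5 on the left, from *Mgst1* at -2.75 to *Prdx1* at 0.39, and none on the right, where *Sod2* stands apart at 0.72.

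The TNF-α response of the group as a whole was small. At an adjusted p under 0.05 limma called 0 of the 45 genes higher and 0 lower, where it called 0.111% of all tested probe sets higher and 0.00427% lower. Before adjustment, *Sod2* was past 0.05 as higher and *Sod1* as lower, 2.22% each, against 3.52% higher and 3.58% lower among all probe sets. For 44 of the 45 genes the 95% interval of the difference lay within a doubling or halving of the signal, and for 31 within 1.5-fold. *Sod2* was the exception to the wider limit. The median difference was -0.02, and *Gclc* had the lowest value, at -0.24 (adjusted p = 0.74). In 11 of the genes, among them *Gpx2*, *Gpx3*, *Gpx5* and *Gpx6*, every group mean lay below the median probe set mean, so that a change in a rare transcript could be missed there.

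Samples with the same replicate number deviated together from their group means, most clearly for number 3 (correlations 0.403 and 0.465 in the TNF-α and knock-down comparisons). Knock-down array 1 correlated with stimulated wild-type array 2 (0.16) about as much as with array 1 (0.147). With the replicate number as a blocking factor limma called more of these genes in the knock-down difference. With the block, *Cat*, *Gstt3*, *Hmox1*, *Mgst1*, *Mgst2* and *Sod2* were lower and *Gclc*, *Gpx1*, *Gstk1*, *Gsto1* and *Prdx1* higher, 6 and 5 of the 45 (13.3% and 11.1%). The same model called 4.07% of all tested probe sets lower and 4.94% higher. In the TNF-α response none passed with the block, which called 0.235% of all tested probe sets. Array 3 had the highest signal of its group in all 3 groups for 13 of the 45 genes (28.9%), against 10% of all tested probe sets. These were *Cat*, *Hmox1*, *Prdx4* and 10 glutathione transferase genes, *Gsta4*, *Gstk1*, *Gstm1*, *Gstm2*, *Gstm3*, *Gstm5*, *Gstm6*, *Gstm7*, *Gstt1* and *Gstt3*. It had the lowest signal in all 3 groups for *Gclc*, *Gsr*, *Gsto1*, *Sod3* and *Txnrd1* (11.1%, against 7.77%). This pattern was chosen after its values were seen and was not tested.

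The genes around these enzymes were counted in 6 lists. Of 72 genes measured, 6 rose (8.33%) and 3 fell (4.17%) in the knock-down, against 3.36% higher and 2.6% lower among all tested probe sets. None passed in the TNF-α response, in which 0.111% of all tested probe sets were called higher and 0.00427% lower. The largest changes were in the list of sources of superoxide and peroxide, 14 genes of which *Cyba* fell and *Nox4* rose. That list also holds *Ccs*, the copper chaperone of superoxide dismutase, which is not itself a source. *Ccs* differed by -0.09 in the knock-down (adjusted p = 0.62) and by -0.39 against unstimulated wild type (adjusted p = 0.010). *Cyba*, which encodes p22phox, the membrane partner that several NADPH oxidases need, was at 6.88, 6.61 and 6.73 in stimulated knock-down cells and 8.74, 8.37 and 8.54 in stimulated wild-type cells. The groups lay far apart, with a difference of -1.81 (3.51-fold lower, standard error 0.12, adjusted p = 9.5e-05). *Nox4*, an oxidase that makes hydrogen peroxide and is known to work with p22phox, was at 5.28, 5.22 and 5.43 in the knock-down and 4.38, 4.04 and 4.46 in stimulated wild-type cells (difference 1.02, standard error 0.15, adjusted p = 0.0040). The wild-type mean of *Nox4* (4.29) was under 4.51, which leaves the size of its rise less certain.

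Of 15 other thioredoxin and glutaredoxin genes, *Glrx*, the cytosolic glutaredoxin that removes glutathione from proteins, fell by 0.77 (standard error 0.10, adjusted p = 0.0024) and *Txn2*, mitochondrial thioredoxin, rose by 0.30 (adjusted p = 0.045). Of 11 genes of NADPH supply, *Me1*, malic enzyme, rose by 0.36 (adjusted p = 0.031), and *Nnt*, the mitochondrial transhydrogenase, fell by 0.45 (adjusted p = 0.045). *G6pd2*, a copy of the glucose-6-phosphate dehydrogenase gene *G6pdx*, rose by 0.46 (adjusted p = 0.0088), and probes for the copies may not tell them apart. Of 14 genes of glutathione supply and turnover only *Hagh*, glyoxalase II, passed, at 0.63 (adjusted p = 0.013), and of 8 genes of heme and iron handling none did.

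Of 10 Nrf2 regulators, *Mafk*, a small Maf partner of Nrf2, was between 6.99 and 7.02 on the 3 arrays of stimulated knock-down cells and 6.29, 6.39 and 6.30 in stimulated wild-type cells (difference 0.67, standard error 0.07, adjusted p = 0.00086). The arrays within each group lay close together and the groups did not overlap. *Maff*, another small Maf, was at 6.65, 6.90 and 7.31 in stimulated knock-down, 6.13, 5.59 and 6.77 in stimulated wild-type and 5.36, 5.58 and 4.92 in unstimulated wild-type cells. Its knock-down difference was 0.79 (adjusted p = 0.19), its TNF-α difference 0.88 (adjusted p = 0.64), and only the comparison of stimulated knock-down with unstimulated wild-type cells passed, at 1.67 (adjusted p = 0.0086). *Mafg*, the remaining small Maf of the list, went the other way. It was at 7.45, 7.43 and 7.47 in stimulated knock-down and 7.69, 7.67 and 7.75 in stimulated wild-type cells. Its difference of -0.25 (standard error 0.06) narrowly missed the threshold (adjusted p = 0.054). *Nfe2l2*, which encodes Nrf2, and *Keap1*, which marks it for breakdown, had knock-down differences of 0.13 (95% interval -0.13 to 0.39) and 0.03 (-0.18 to 0.24), and neither passed.

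**Figure D4:**
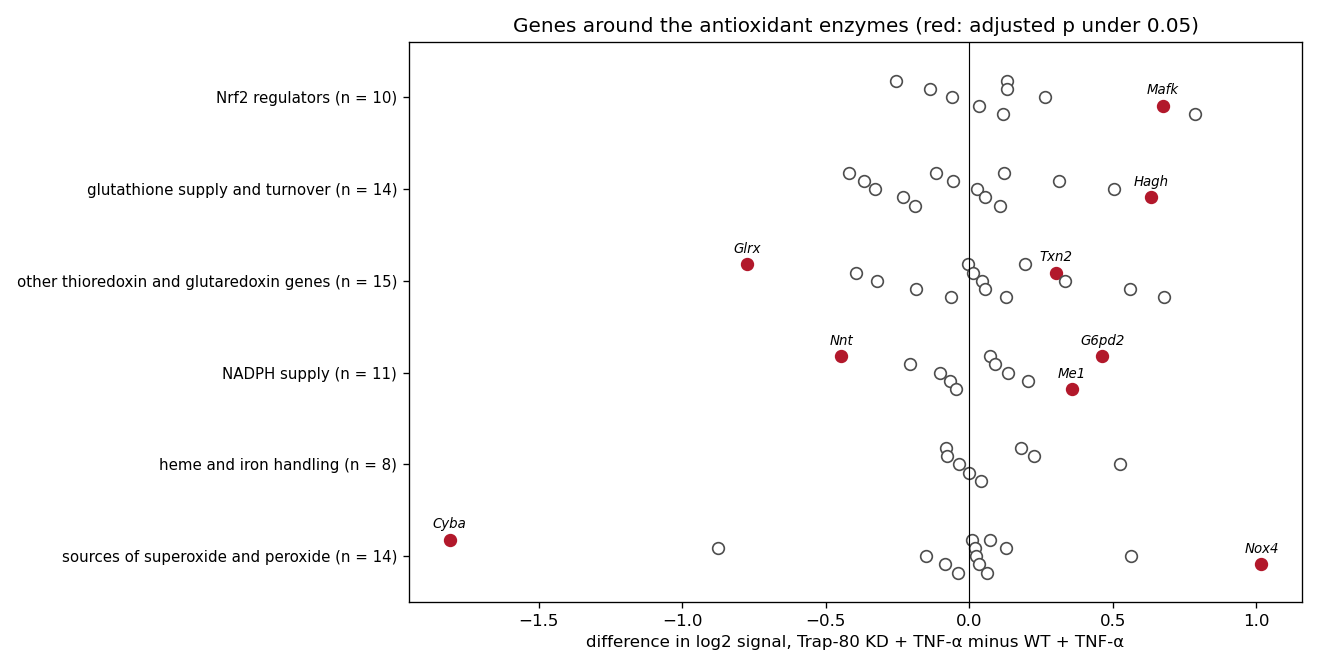
Difference in log2 signal for knock-down minus wild-type cells, both stimulated (horizontal axis), for the 72 genes of 6 lists (rows), 1 point a gene. Named red points passed the test, from *Cyba* at -1.81 to *Nox4* at 1.02, and the heme and iron list has none.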

How the data were processed

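The authors deposited log2 values from Affymetrix Mouse Gene 1.0 ST arrays, per the labels' processing notes with RMA, a method that corrects background, normalizes between arrays and summarises probes (no version was stated). These values were used as deposited: 35557 probe sets on 9 arrays, with array medians between 4.47 and 4.59. The platform's annotation gave 21789 probe sets 1 symbol and 1621 several, and 12147 are unnamed here. The 23410 with at least 1 gene entered a limma model of the 3 groups (lmFit and eBayes of limma 3.58.1 in R 4.3.3, with a prior of 3.2 degrees of freedom), with Benjamini-Hochberg adjustment over all of them and a threshold of 0.05. The model was first tested on simulated data in which each array had independent noise. That simulation did not cover deviations shared by arrays with the same replicate number. The genes shown array by array are those that passed in any comparison, with *Sod2*, *Hmox1*, *Gclc*, *Gclm*, *Nqo1* and *Txnrd1*. *Mgst2*, *Sod1*, *Gsto1* and genes of the lists shown array by array were added after their values were seen. Members, lists and tests were chosen with earlier results of these data known. The labels call the arrays of a group biological replicates, and their number limits the precision.

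The groups share replicate numbers. Deviations from the group means correlated between same-numbered arrays in the TNF-α comparison (0.298, 0.110 and 0.403) and the knock-down difference (0.147, 0.274 and 0.465), so the number was also fitted as a blocking factor. What a number marks is not stated, and some other-numbered pairs correlated as well (0.249 for stimulated array 1 with unstimulated array 2). Promoter sequences came from RefSeq (GRCm38.p6), whose gene table also gave the order of neighbouring genes.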

Additional observations from a re-analysis of the deposited data

How the results depend on the processing

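*Mgst1* and *Sod2* stayed lower in the knock-down and past the threshold under all 17 alternatives (8 other settings and each of the 9 arrays left out in turn), with differences of -2.93 to -2.48 and -0.90 to -0.74. *Gpx1* missed it without stimulated wild-type array 1 or 2 or knock-down array 2 (adjusted p up to 0.062). *Prdx1* missed it without any 1 of stimulated wild-type array 1 or 2 or knock-down array 1, 2 or 3 (up to 0.086), and *Gstt3* without any 1 array but knock-down array 3 (up to 0.13). Of the 45 genes, 3 passed in the knock-down difference when all deposited probe sets were tested or only the 6 arrays compared were used, which loses *Prdx1* and *Gstt3*. With the replicate block 11 passed in the knock-down difference and 11 in the comparison with unstimulated wild type (24.4% of the 45 in each), against 9% and 12.1% of all tested probe sets. The pairing is less clear in the second (correlations 0.151, 0.00218 and 0.221). Calling genes by the reproducibility filter of the methods, as read here, gave 2, 10 and 10 genes for the TNF-α response, the knock-down difference and the comparison with unstimulated wild type. That filter took 7.46%, 16.4% and 19.9% of all tested probe sets, and its 2 genes in the TNF-α response were *Sod1* and *Sod2*. Without 1 array at a time the counts were 0 to 0, 2 to 5 and 1 to 5. *Hmox1* passed in the knock-down difference with the block, without knock-down array 3 (adjusted p = 0.031), or when only probe sets above the median mean were tested (adjusted p = 0.039). Against unstimulated wild type it missed the threshold without any 1 of unstimulated array 1, 2 or 3, stimulated wild-type array 1 or knock-down array 1 or 2 (up to 0.13), with all deposited probe sets tested (0.077) or with only the 6 arrays compared (0.062), and *Prdx1* without unstimulated array 2 or knock-down array 3 (up to 0.065). No result changed direction under these alternatives. *Sod2* did not pass in the TNF-α response under any of the 17 limma alternatives (adjusted p 0.084 to 0.61). The causes of these changes were not tested.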
